A study of Mus musculus with 2 samples.

Results

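The CCAAT/enhancer binding proteins (C/EBPs) were compared between a pair of sorted mouse bone marrow populations, called RANKhigh c-Fmslow and RANKlow c-Fmshigh after their surface staining. RANK is the receptor through which RANKL drives osteoclast formation, c-Fms is the receptor for M-CSF, and the study concerns osteoclast precursors. Both populations came from the mononuclear fraction of marrow of ddY mice (an outbred stock) aged 6 weeks, and each was hybridised to 1 oligonucleotide array. The labels name no genetic change or agent, and they do not state how many mice were pooled. The family was taken as 7 genes, Cebpa, Cebpb, Cebpd, Cebpe, Cebpg, Cebpz and Ddit3, and a gene counted as measured when a probe set named it and no other gene. On this rule 6 of the 7 were found among 19935 genes, each through 1 probe set. Cebpz, which encodes a nucleolar CCAAT-binding protein without the leucine zipper of the others, was not analysed here.

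C/EBPs bind DNA as dimers through a basic region and a leucine zipper, and most members can pair with one another. In the marrow, C/EBPα opens the granulocyte and monocyte fate, C/EBPε carries granulocytes through their late stages, and C/EBPβ acts in emergency granulopoiesis and in macrophages. C/EBPδ is an acute phase member, C/EBPγ lacks the activation domain of the larger members, and the product of Ddit3, CHOP, is a stress-induced partner that diverts other C/EBPs from their usual sites. In osteoclast precursors, C/EBPα is known as a factor that promotes the osteoclast fate, and the short form of C/EBPβ has been linked to the balance of osteoclast formation. Arrays measure transcript, so the long and short protein forms made from the Cebpa and Cebpb messengers were not separated.

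RefSeq promoter entries (GRCm38.p6) were found for 4 of the 7 members, Ddit3, Cebpb, Cebpa and Cebpg. They set the regulatory sequence of Ddit3, the member second furthest apart between the arrays, beside that of 3 members that were close to equal. No entry was found for Cebpe, the member furthest apart, or for Cebpd and Cebpz. Whether any motif bears on a difference between the arrays was not tested. Each sequence covers the 250 bases before the annotated start, 5′ to 3′ on the strand of the gene, with the matches to the motifs below in capitals. The windows are chr10:127290543-127290792 on the plus strand for Ddit3, chr2:167688665-167688914 on the plus strand for Cebpb, chr7:35119043-35119292 on the plus strand for Cebpa and chr7:35056567-35056816 on the minus strand for Cebpg.
Ddit3: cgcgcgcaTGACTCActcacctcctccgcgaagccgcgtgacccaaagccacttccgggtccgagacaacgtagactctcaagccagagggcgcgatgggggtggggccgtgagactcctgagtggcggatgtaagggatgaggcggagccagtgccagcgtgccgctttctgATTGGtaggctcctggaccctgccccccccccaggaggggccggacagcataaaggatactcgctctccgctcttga
Cebpb: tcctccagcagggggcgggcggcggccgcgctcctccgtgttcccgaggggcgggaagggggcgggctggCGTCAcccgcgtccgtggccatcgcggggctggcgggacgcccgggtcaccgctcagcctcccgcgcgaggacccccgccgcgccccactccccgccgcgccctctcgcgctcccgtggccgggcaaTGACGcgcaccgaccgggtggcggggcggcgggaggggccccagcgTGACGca
Cebpa: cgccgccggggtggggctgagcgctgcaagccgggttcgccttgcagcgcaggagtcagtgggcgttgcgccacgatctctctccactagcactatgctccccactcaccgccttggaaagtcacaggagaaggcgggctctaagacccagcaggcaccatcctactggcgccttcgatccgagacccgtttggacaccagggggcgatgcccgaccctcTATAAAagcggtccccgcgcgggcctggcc
Cebpg: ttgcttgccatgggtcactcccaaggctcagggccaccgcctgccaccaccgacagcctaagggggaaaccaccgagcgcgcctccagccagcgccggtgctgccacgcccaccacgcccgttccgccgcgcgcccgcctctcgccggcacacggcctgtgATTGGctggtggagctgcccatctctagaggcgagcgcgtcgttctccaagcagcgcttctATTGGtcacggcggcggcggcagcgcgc

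Of the motifs searched on both strands, the Ddit3 window held 1 AP-1 element, TGACTCA, from 242 to 236 bases before the start, and 1 CCAAT box, read as ATTGG on the gene's strand. The AP-1 element was present in 4.46% of 32851 promoter windows of the same length and the CCAAT box in 33.8%. The Cebpb window held 3 half-sites of the cyclic AMP response element, TGACG, and 17.8% of windows held 1 or more. The Cebpa window held a TATA box, TATAAA, from 30 to 25 bases before the start, a motif of 12.4% of windows. The Cebpg window held 2 CCAAT boxes, both read as ATTGG. No window of the 4 held the C/EBP consensus TTNNGNAA (36.8% of windows) or the full cyclic AMP response element TGACGTCA (1.55%) in these letters. Nor did any hold the C/EBP-ATF composite element TGATGNAA (3.45%) or the ETS element GAGGAAGT (2.44%). The half-site TGACG is part of the full cyclic AMP response element. The 4 windows were 64.8 to 81.6% G or C, against a median of 52.4% over all windows. The shares were not matched for this, and sequence further upstream was not searched. In the reference gene table Cebpg and Cebpa are close neighbours on chromosome 7, with no protein-coding gene between them.

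Values are deposited intensities on a linear scale, 1 per probe set and array. With 1 array per population there is no replicate error, and tests were therefore not run: each difference is a description without a replicate check. Differences are log2 intensities on the RANKhigh c-Fmslow array (the RANKhigh sample) minus those on the RANKlow c-Fmshigh array (the c-Fmshigh sample). Where a pair of intensities is given as 1 value against another, that of the RANKhigh sample stands first. Genes were counted on measured values at a fixed size, 2-fold or more, among 11089 genes that reached 93.6, the median of all values, in at least 1 sample. Intensities of different probe sets are not on a common scale, so levels were compared between arrays and not between genes. In such bulk samples, fewer cells of a type and less RNA per cell cannot be told apart. The arrays had like medians (94.5 and 92.6), and Csf1r, which encodes c-Fms, stood at 164 in the RANKhigh sample and 821 in the c-Fmshigh sample, in the direction of the sort. Tnfrsf11a, which encodes RANK, stood at 104 and 119, slightly against its label, so that the name RANKhigh refers to the sort and not to the transcript.

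One member, Cebpe, was higher by 2-fold or more in the RANKhigh sample, and 0 were higher by 2-fold or more in the c-Fmshigh sample. Among all genes above the level filter these shares were 4.34% and 4.26%. The family thus did not move as a block: 3 of the 6 measured members were higher on each array, and the median log2 difference was 0.01, beside -0.01 over the genes above the filter. All 6 members passed the filter on both arrays, and all 12 values lay above the 95th percentile of 1189 olfactory and vomeronasal receptor genes (83.8 in the RANKhigh sample, 81.8 in the other), a guide to background.

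**Figure D1:**
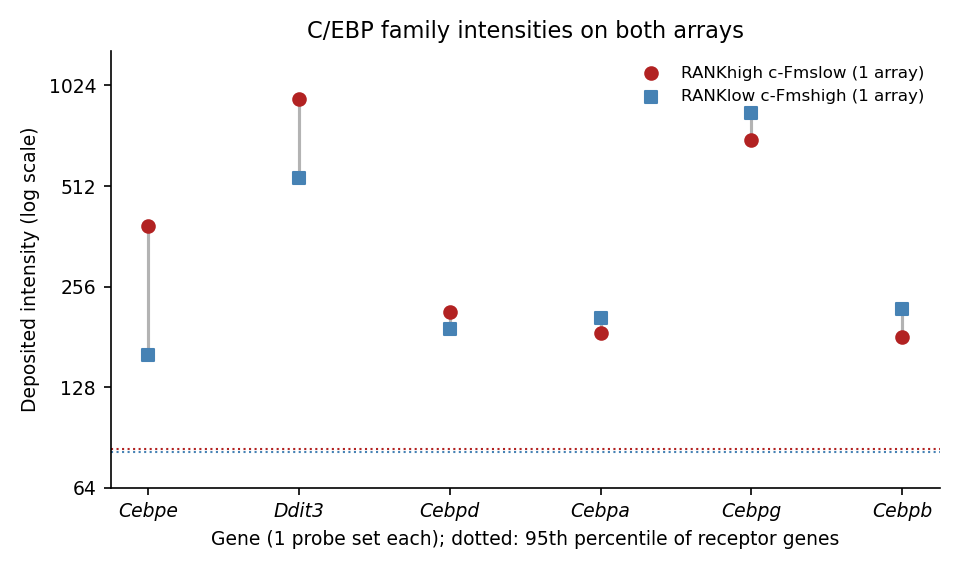
Deposited intensity (log scale) of the 6 measured C/EBP genes, with 1 circle for the RANKhigh c-Fmslow array and 1 square for the RANKlow c-Fmshigh array per gene. Grey lines join the values of a gene and dotted lines mark the 95th percentile of receptor genes on each array (83.8 and 81.8). The widest gaps are those of Cebpe (387 against 159) and Ddit3 (934 against 541), and every value lies above the dotted lines.

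Cebpe, the late granulocyte member, was measured at 387 in the RANKhigh sample and at 159 in the c-Fmshigh sample. This is a 2.43-fold excess, or 1.28 on the log2 scale. Of the genes above the filter, 2.71% were as far or further apart in that direction. Cebpe was therefore in the outer part of the distribution but not at its edge. Ddit3, which encodes CHOP, was measured at 934 in the RANKhigh sample and at 541 in the c-Fmshigh sample. Its excess of 1.73-fold (0.79 on the log2 scale) stayed below the 2-fold size, and 6.75% of genes were as far or further apart in that direction. At a size of 1.5-fold, Ddit3 joined Cebpe, against 10.5% of genes higher in the RANKhigh sample, and 0 members were higher in the c-Fmshigh sample, against 12.4% of genes.

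The 4 other members were close to equal on both arrays. Cebpd stood at 215 in the RANKhigh sample and 192 in the c-Fmshigh sample, a log2 difference of 0.17. Cebpa, the member that starts the granulocyte and monocyte fate, stood at 187 and 207 in the same order, a difference of -0.15. Its neighbour on chromosome 7, Cebpg, stood at 703 and 849, a difference of -0.27. Cebpb was likewise a little lower in the RANKhigh sample, at 181 and 219, with a difference of -0.28. None of these 4 reached 1.5-fold, and for Cebpb, the widest of the 4, 49.7% of genes were as far or further apart in either direction. As a guide to disagreement between probe sets, the log2 differences from the 2 probe sets of a gene were compared in 558 genes with exactly 2. They lay a median of 0.19 apart, with a 90th percentile of 0.67. This guide holds no variation between samples. The differences of Cebpe and Ddit3 exceeded 0.67, and those of the other 4 did not. The order of the differences among Cebpb, Cebpg, Cebpa and Cebpd was therefore within that disagreement.

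**Figure D2:**
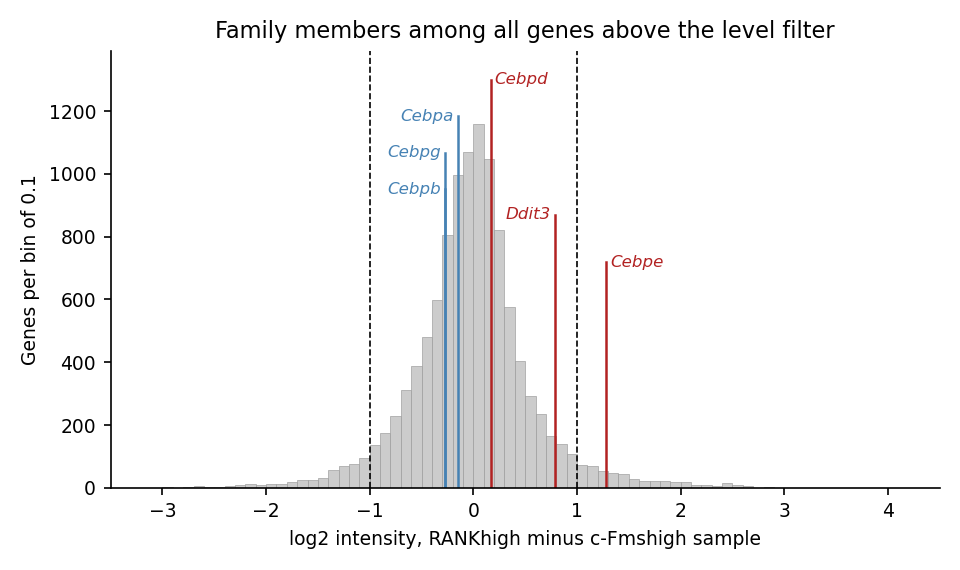
Number of genes per bin of 0.1 in the log2 difference between the arrays (RANKhigh minus c-Fmshigh), for the 11089 genes above the level filter, with the 6 measured C/EBP genes as vertical lines of arbitrary height. Dashed lines mark 2-fold. Cebpe (1.28) lies past the line, Ddit3 (0.79) short of it, and the other 4 members lie between -0.28 and 0.17, in the centre of the distribution.

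Genes usually linked with C/EBPs were examined next, by the member they are linked with. Late granule genes linked with C/EBPε were all higher in the RANKhigh sample, 9 of 13 by 2-fold or more. The median log2 difference was 1.88 (1.76 with values below the receptor genes' 95th percentile set to it). These are also granulocyte genes, chosen with earlier results of these data known. Whether their difference depends on C/EBPε was not tested. Retnlg, a resistin-like protein of marrow granulocytes, stood at 3059 against 177 (17.3-fold). Lcn2, a siderophore-binding granule protein, stood at 3194 against 430 and was 7.43-fold higher. Camp, the cathelicidin gene, stood at 7136 against 1257 and was 5.68-fold higher. Ltf, lactoferrin of the secondary granules, stood at 2487 against 452 and was 5.50-fold higher. The median of the list was larger than the difference of Cebpe itself, and the smallest difference in it was that of the collagenase gene Mmp8 (0.53), named here after its value was seen.

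The list of early granulocyte genes linked with C/EBPα, which also holds genes shared with monocytes such as Lyz2, did not share that direction. Of 10 genes 3 were higher in the RANKhigh sample, 0 of them by 2-fold or more. The other 7 were higher in the c-Fmshigh sample, 1 of them by 2-fold or more. The list median was -0.40. Il6ra, the interleukin-6 receptor chain, stood at 164 in the RANKhigh sample and 390 in the other, 2.37-fold lower. Lyz2, the lysozyme of monocytes and granulocytes, stood at 3320 against 6518, just inside 2-fold. Among genes of the primary granules, Ctsg stood at 1056 against 1567, a log2 difference of -0.57. Others of that kind, chosen after their values were seen, were Mpo (-0.55), Prtn3 (-0.46) and Elane (0.29), the last higher in the RANKhigh sample. The membrane protein gene Ms4a3, a marker of granulocyte and monocyte progenitors, was higher in the RANKhigh sample at 894 against 509.

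Markers of granulocytes were mostly higher in the RANKhigh sample, as Cebpe was, and so were the B lineage and erythroid markers given below. Of 6 neutrophil markers 3 were higher by 2-fold or more in the RANKhigh sample (median 1.05), and their summed intensity was 3435 against 723. Ly6g, the neutrophil surface antigen, stood at 1581 against 156. Eosinophils also use C/EBPε, and 5 of 7 eosinophil markers were higher by 2-fold or more (median 1.87, summed intensity 12331 against 1283), led by Prg3 at 2582 against 172. Of 8 basophil and mast cell markers 5 were higher by 2-fold or more (median 1.42, summed intensity 3413 against 890). In none of these 3 lists was a marker higher by 2-fold or more in the c-Fmshigh sample. In the c-Fmshigh sample, 3 of the 6 neutrophil, 2 of the 7 eosinophil and 5 of the 8 basophil and mast cell markers lay below the receptor genes' 95th percentile. With such values set to that percentile, the 3 medians were 1.05, 1.75 and 1.17. No value was 0. Their part in the difference of Cebpe was not tested.

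The genes with a difference nearest to that of Cebpe over the 2 arrays were sought among all 180 listed genes above the filter other than the members. They were S100a8 (1.28), a calcium-binding protein of neutrophils from the late granule list, the histidine decarboxylase gene Hdc (1.27), from the basophil list, and the decoy receptor gene Il1r2 (1.24), from the neutrophil list. Several of the lists searched are of granulocyte genes, so such neighbours were likely from the outset. With 2 arrays, likeness means only a like ratio.

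**Figure D3:**
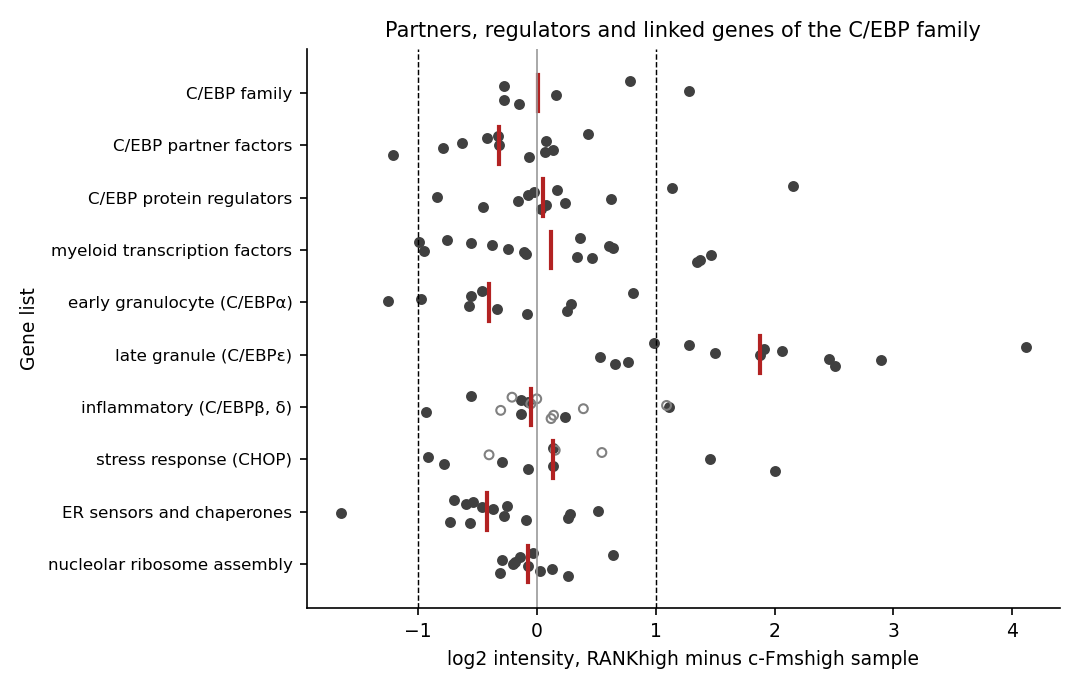
Log2 difference between the arrays (RANKhigh minus c-Fmshigh) for the genes of the C/EBP family and of 9 related lists, with 1 point per gene, open where neither array reached the level filter. Red bars are list medians and dashed lines mark 2-fold. The late granule list lies wholly to the right of 0 (median 1.88), and the medians of the other lists lie between -0.42 and 0.14.

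Genes linked with C/EBPβ and C/EBPδ in inflammation were mostly low or near equal. Of 15 such genes, 7 passed the level filter, 1 was higher by 2-fold or more in the RANKhigh sample and 0 in the other, and the median difference was -0.05. Il1b, the interleukin-1β gene, stood at 392 in the RANKhigh sample and 182 in the c-Fmshigh sample. The haptoglobin gene Hp, an acute phase product that monocytes and granulocytes also make, stood at 1625 against 3095, a difference of -0.93. Tnf stood at 214 against 314 and the chemokine gene Ccl3 at 1763 against 1498. The cytokine genes Il6, Il12b, Il10 and Csf3 did not pass the filter on either array, and their values, chosen here after they were seen, ran from 30.0 to 79.7. At such levels these 4 genes could not be told from background.

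The stress genes around CHOP were divided. Of 11 genes linked with CHOP or with the integrated stress response 2 were higher by 2-fold or more in the RANKhigh sample and 0 in the other, with a median of 0.14. Asns, asparagine synthetase, stood at 824 in the RANKhigh sample and 205 in the c-Fmshigh sample (4.02-fold). Ppp1r15a, which encodes GADD34, the phosphatase subunit that ends the stress response, stood at 863 against 314 (2.75-fold). Psat1, an enzyme of serine synthesis, stood at 247 against 468 and the oxidase gene Ero1a at 575 against 990, both lower in the RANKhigh sample by less than 2-fold. The CHOP targets Trib3 (94.4 against 85.7) and Chac1 (94.9 against 99.9), chosen after their values were seen, were near the level filter and near equal. Sensors and chaperones of the endoplasmic reticulum lay mostly on the other side. Of these 14 genes, 11 were lower in the RANKhigh sample, 1 of them by 2-fold or more, with a median of -0.42. Ern1, the sensor IRE1α, stood at 153 against 479 and was 3.13-fold lower there. Its target Xbp1 stood at 200 against 324 (-0.70), the chaperone gene Calr at 1165 against 1929 (-0.73) and Pdia4 at 177 against 268 (-0.60). The 3 that were higher there, chosen after their values were seen, were Herpud1 (0.52), the sensor gene Eif2ak3 (0.28) and Dnajb9 (0.27). The direction of Ddit3 was therefore shared by 6 of the 11 stress genes, Asns and Ppp1r15a among them, and 5 went the other way. Most of the sensors and chaperones did not share it.

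Partners of the C/EBPs lay mostly within 2-fold. Of 11 partner genes 1 was lower by 2-fold or more in the RANKhigh sample and 0 were higher by that size, with a median of -0.32. Atf3, a stress-induced partner, stood at 454 in the RANKhigh sample and 1052 in the c-Fmshigh sample, 2.32-fold lower. The leucine zipper genes Batf (217 against 375) and Batf3 (98.1 against 151) were also lower, by less than 2-fold. Jun, a subunit of AP-1, stood at 699 against 518. Atf4, the activator of Ddit3 in the integrated stress response, chosen after its values were seen, stood at 776 against 738, a difference of 0.07.

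The proteins that set C/EBP amount and activity gave the widest difference outside the late granule and marker lists. Trib2, a pseudokinase that directs C/EBPα to degradation, stood at 491 in the RANKhigh sample and 110 in the c-Fmshigh sample (4.46-fold). Trib1, its close relative with the same activity, stood at 436 against 198 (2.21-fold). The other 10 of the 12 measured regulators lay within 2-fold, among them the ubiquitin ligase gene Cop1 that both recruit (671 against 750, chosen after its values were seen). The list median was 0.06. Of the kinases that phosphorylate eIF2α, Eif2ak2 stood at 190 against 341 and Eif2ak1, the heme-regulated kinase of erythroid cells, at 1079 against 701.

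Transcription factors that work with or against C/EBPs in blood lineages varied both ways: 3 of 16 were higher by 2-fold or more in the RANKhigh sample and 0 in the other (median 0.12). Gfi1b (430 against 156) and Gata1 (356 against 137), factors of erythroid cells and megakaryocytes, and the immediate early gene Egr1 (309 against 122) were the 3. Spi1, which encodes PU.1, the partner of C/EBPα in myeloid enhancers, stood at 196 against 390, just inside 2-fold in the other direction. Gfi1, the repressor that acts beside C/EBPε in neutrophils, chosen after its values were seen, stood at 126 against 100.1. Nucleolar genes of ribosome assembly, the process in which Cebpz takes part, were near equal: 0 of 11 reached 2-fold in either direction, the median was -0.07, and the widest was Pes1 at 405 against 260.

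**Figure D4:**
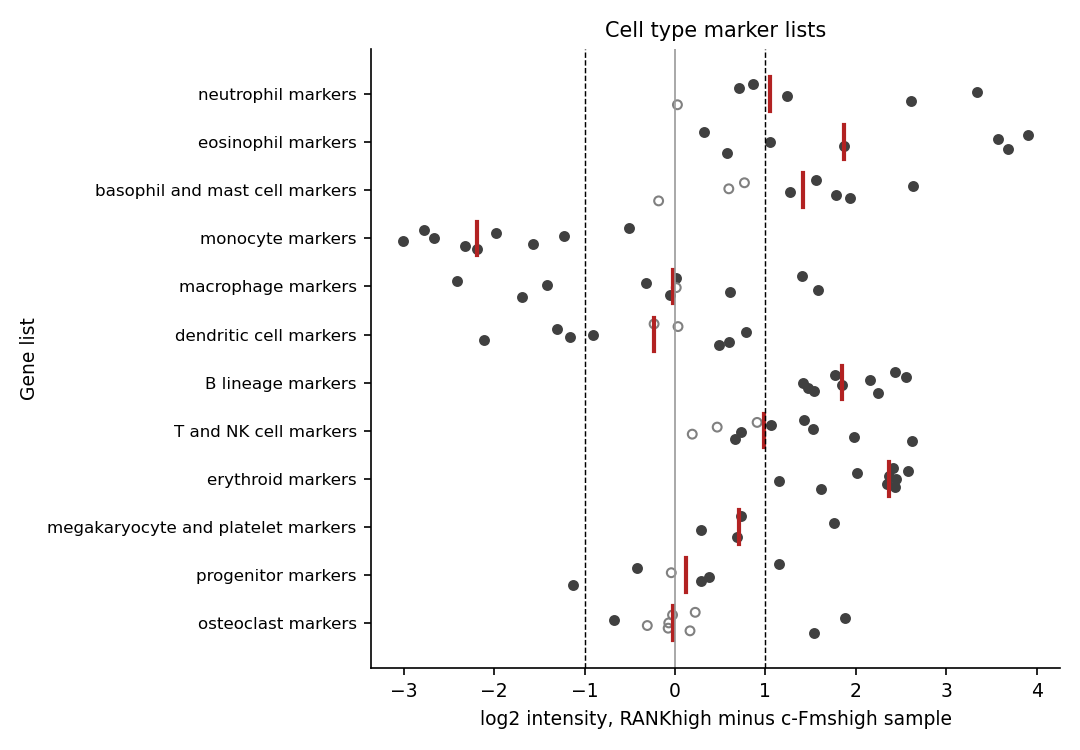
Log2 difference between the arrays (RANKhigh minus c-Fmshigh) for 12 lists of cell type markers, with 1 point per gene, open where neither array reached the level filter. Red bars are list medians and dashed lines mark 2-fold. Granulocyte, B lineage and erythroid medians lie above 1 (1.05 to 2.37) and the monocyte median at -2.19.

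Other cell types also differed between the arrays beside these values. All 9 measured B lineage markers (median 1.84, summed intensity 13581 against 3704) and all 9 erythroid markers (median 2.37, summed intensity 11686 against 2484) were higher by 2-fold or more in the RANKhigh sample, Pax5 (1544 against 262) and Rhag (1164 against 196) leading them. T and NK cell markers had a median of 0.99 and megakaryocyte and platelet markers one of 0.71. Monocyte markers lay on the other side, with 8 of 9 higher by 2-fold or more in the c-Fmshigh sample (median -2.19, summed intensity 4199 against 19130), F13a1 at 517 against 4177 being the widest. Macrophage markers went both ways around a median of -0.02. In the RANKhigh sample 2 of 10 were higher by 2-fold or more, among them the complement gene C1qc (457 against 152). Its companions C1qb (167 against 110) and C1qa (177 against 184), chosen after their values were seen, did not reach 2-fold. In the c-Fmshigh sample 3 were higher by 2-fold or more, led by the scavenger receptor gene Msr1 (209 against 1119). Of 9 dendritic cell markers 3 were higher by 2-fold or more in the c-Fmshigh sample and 0 in the other (median -0.23). Of these 9, 4 in the RANKhigh sample and 2 in the c-Fmshigh sample lay below the receptor genes' 95th percentile. With such values set to that percentile, the dendritic cell median was 0.03. Of 6 progenitor markers 1 was past 2-fold in each direction (median 0.12). Of 9 osteoclast markers 2 were higher by 2-fold or more in the RANKhigh sample, Mmp9 and Acp5, with a list median of -0.03. Mmp9 also stands in the late granule list. Of the 9 osteoclast markers, 5 in the RANKhigh sample and 6 in the c-Fmshigh sample lay below the receptor genes' 95th percentile. The part of these cell types in the differences of Ddit3, Trib2, Gata1 and the other genes above was not tested.

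**Figure D5:**
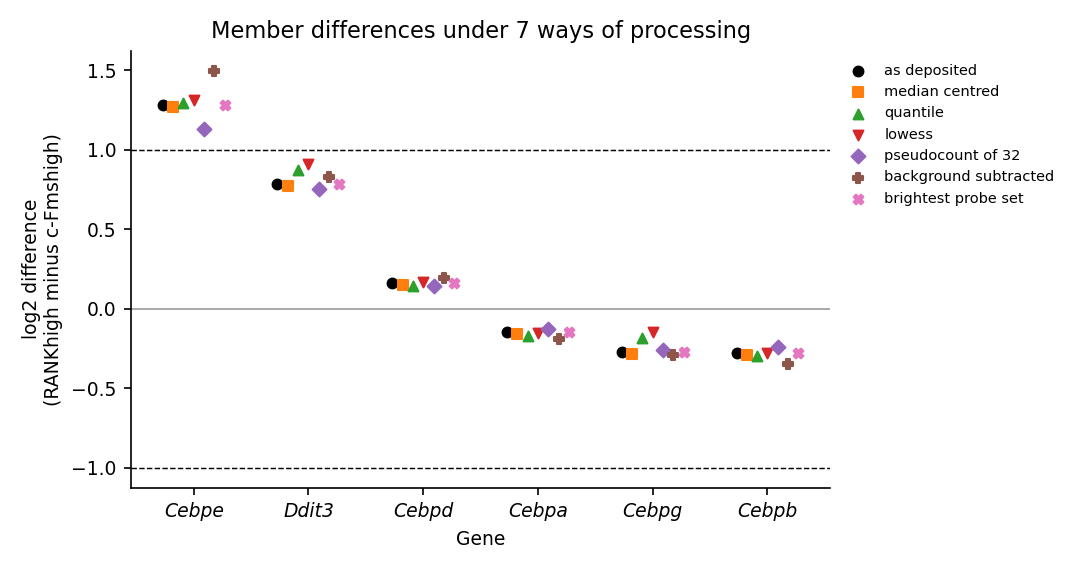
Log2 difference between the arrays (RANKhigh minus c-Fmshigh) of the 6 measured C/EBP genes under 7 ways of processing, 1 symbol each, with dashed lines at 2-fold. Cebpe stays between 1.13 and 1.498, Ddit3 between 0.75 and 0.91, and no member crosses 0 or the 2-fold line. The brightest probe set repeats the values as deposited, since each member has 1 probe set.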

How the data were processed

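Mononuclear marrow cells were stained for RANK and c-Fms and sorted, and amplified, biotin-labelled cDNA was hybridised, per the labels' protocols. The deposited values are linear intensities. GCOS 1.4 and RMA are named in the submitters' processing notes, without settings. RMA returns log2 values, and how the linear scale arose is not given in the sources used here. Intensities were put on the log2 scale with no pseudocount or further scaling (Python 3.11.15, pandas 2.3.3, numpy 2.4.6). The platform annotation of 2016 assigned a single gene to 21780 of the 28815 probe sets. It assigned more than 1 gene to 1605, which were left aside, and did not list 5430. Probe sets of a gene were averaged.

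Precision is limited by the number of arrays, 1 per group. A lower value below the receptor genes' 95th percentile makes a fold a bound, so none is printed for such genes. In the text appear every member, the sort markers, up to 4 genes per list with the widest difference above the filter, the 3 listed genes nearest in difference to Cebpe, and genes said to be chosen after their values were seen. Of the marker lists fewer are named. The 21 gene lists (215 of 234 entries measured, members included) and the members were chosen with earlier results of these data known. The size rule was tested on simulated data. Planted changes were larger than that of Cebpe or smaller than that of Ddit3, so sizes close to 2-fold were not tried. Alternatives were 3 scalings, a pseudocount of 32, background subtraction, the brightest probe set per gene, the level filter and a threshold of 1.5-fold (statsmodels 0.14.6 for lowess). Sequences came from RefSeq tables.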

Additional observations from a re-analysis of the deposited data

How the results depend on the processing

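Under 6 alternatives all 6 members kept the sign of their difference, and Cebpe alone stayed past 2-fold. These were median centring, quantile normalization, lowess centring, a pseudocount, background subtraction and the brightest probe set. The brightest probe set could not change a member, since each has 1 probe set. Median centring shifted every difference by -0.013, too little to change the sign of any member. The family median lay between -0.01 and 0.01. After background subtraction Cebpe moved to 1.498. The count of all genes higher in the c-Fmshigh sample rose from 472 to 719. That of genes higher in the RANKhigh sample rose alike, from 481 to 712. At 1.5-fold 2 members (Cebpe and Ddit3) were higher in the RANKhigh sample, with 1168 of all genes higher there in place of 481 and 1371 in the other sample in place of 472. A pseudocount of 32 lowered the medians of late granule genes to 1.53, eosinophil markers to 1.52, basophil and mast cell markers to 1.198 and T and NK cell markers to 0.72. Background subtraction moved neutrophil markers to 1.34, eosinophil markers to 2.57, basophil and mast cell markers to 1.67, dendritic cell markers to -0.48 and T and NK cell markers to 1.403. With only genes above the level filter, the medians were 1.78 for basophil and mast cell, -0.90 for dendritic cell, 1.43 for T and NK cell and 1.53 for osteoclast markers, the last over 3 genes. The other 141 list medians under an alternative moved by less than 0.19. No paired analysis was possible because each population has 1 array.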
